A study of Rattus norvegicus with 12 samples.

Results

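The effect of castration in rats that had received estradiol was measured as the difference between 3 ventral prostate arrays of castrated animals given estradiol (called combined) and 3 arrays of intact animals given estradiol alone. These are 6 of the 12 arrays of the study. The value table held 29214 probe sets, of which 15310 carried exactly 1 gene symbol; with 1 probe set kept per gene, 14506 genes were tested. All animals were male Wistar rats aged 90 days, and the prostate was taken 3 days after treatment. The estradiol group received 1 dose of 17β-estradiol, 25 mg/kg body weight in corn oil. The combined group had the testes removed through the scrotum under ketamine and xylazine and received the same dose. Castrated animals had the operation without estradiol, and control animals received vehicle; the labels do not say whether castrated animals were also given vehicle. The combined and estradiol groups therefore differ by the operation and its anaesthesia as well as by the absence of the testes, and these cannot be told apart. Each group had 3 arrays, and the labels do not tie arrays to single animals. The spread behind each p-value is that between the arrays of a group, and part of it may be technical.

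The ventral prostate of the rat is an androgen-dependent gland whose luminal epithelium makes and secretes a few very abundant proteins, surrounded by smooth muscle, fibroblasts and capillaries. Castration removes testicular testosterone, after which secretory genes are shut down, luminal cells die by apoptosis and the vasculature regresses. A high dose of estradiol suppresses gonadotropin release from the pituitary and so lowers testicular testosterone in an intact male, and it also acts on oestrogen receptors in the gland itself. The comparison asks what removal of the testes adds in animals that already received estradiol.

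The 3 estradiol arrays were not alike. The standard deviation of all values on an array was 1.93 on estradiol array 1 and 2.01 on estradiol array 2, against 2.24 to 2.30 on the other 10 arrays. Estradiol array 1 correlated with the combined arrays at r = 0.936 to 0.943 and estradiol array 2 at 0.970 to 0.977, while estradiol array 3 did so at 0.991 to 0.993, which lies near the range of the combined arrays among themselves (0.992 to 0.995). These correlations are across genes within pairs of arrays and are given as a description. The median standard deviation of a gene within the estradiol group was 0.36 on the log2 scale, against 0.12 in the combined group, 0.12 in control and 0.16 in castrated samples. Results are therefore given on the deposited log2 values and again after quantile normalization, which gives all arrays the same distribution, and where it matters against estradiol array 3 alone.

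The narrower range left a level-dependent difference. Genes were put into 10 bins by mean level. In the lowest bin the median difference of combined minus estradiol was -0.40 on the log2 scale, and in the highest bin it was 0.30. After quantile normalization these medians were -0.05 and 0.12. Against estradiol array 3 alone the medians of the bins ran from -0.03 to 0.04 on the deposited values. Genes of low signal were thus lower, and genes of high signal higher, in the combined samples only with respect to estradiol arrays 1 and 2.

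**Figure D1:**
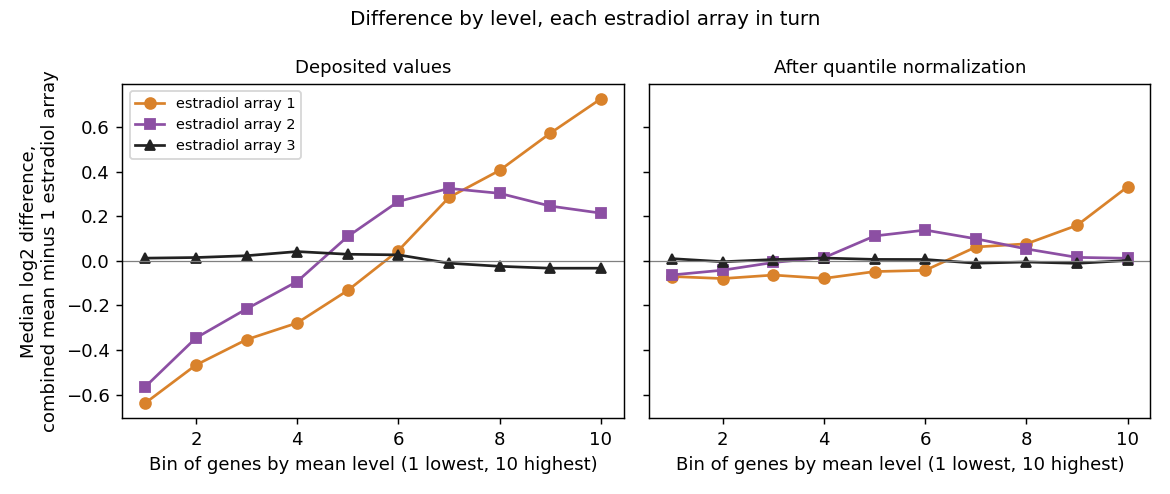
Median log2 difference of the combined mean minus each estradiol array (y axis, log2 units) in 10 bins of the 14506 genes by mean level (x axis), for deposited values (left) and after quantile normalization (right). Estradiol arrays 1 and 2 gave a slope with level in the deposited values, from -0.64 and -0.56 in the lowest bin to 0.73 and 0.21 in the highest, and estradiol array 3 stayed between -0.03 and 0.04.

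No gene passed an adjusted p of 0.05 for combined minus estradiol in limma (0 of 14506 genes, 0%), and the smallest adjusted p was 0.24, or 0.35 after quantile normalization. At an unadjusted p under 0.05 there were 2742 genes, of which 1424 were higher (9.82%) and 1318 lower (9.09%) in the combined samples. After quantile normalization there were 1855, of which 1054 were higher (7.27%) and 801 lower (5.52%). The combined arrays lay above all 3 estradiol arrays on both scales for 839 genes (5.78%) and below all 3 for 515 genes (3.55%). The median standard error was 0.19, and the median 95% interval reached 0.42 to either side of a gene's own difference. The count depended on which estradiol arrays entered. Without estradiol array 3 it was 4153 genes, and without estradiol arrays 1 and 2 together, which leaves 1 estradiol array whose spread is assumed to be that of the other groups, it was 2 genes, Semg1 and Msmb. Weighting the arrays by their quality in the fit gave 489 genes, and the same weights after quantile normalization gave 0.

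Secretory products of the ventral prostate are the classical readout of androgen action in this gland. The leading example is probasin (Pbsn), a lipocalin secreted by rat prostate epithelium whose promoter is a standard androgen-responsive model. Its promoter from RefSeq (GRCr8, chrX:45807934-45808233, minus strand) is shown with that of Msmb (chr16:7372569-7372868, plus strand), a secreted prostate protein, because these secretory genes set estradiol array 3 apart. Capitals mark matches on either strand to the androgen response element (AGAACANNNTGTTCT, up to 2 mismatches), to its core AGAACA, or to the oestrogen response element (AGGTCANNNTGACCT, up to 2 mismatches).
Pbsn: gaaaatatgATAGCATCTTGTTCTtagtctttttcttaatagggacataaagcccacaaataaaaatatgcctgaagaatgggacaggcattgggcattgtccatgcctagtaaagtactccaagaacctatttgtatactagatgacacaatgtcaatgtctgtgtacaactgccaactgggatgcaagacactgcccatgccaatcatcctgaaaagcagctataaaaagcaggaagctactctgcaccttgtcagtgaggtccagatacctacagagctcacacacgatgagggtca
Msmb: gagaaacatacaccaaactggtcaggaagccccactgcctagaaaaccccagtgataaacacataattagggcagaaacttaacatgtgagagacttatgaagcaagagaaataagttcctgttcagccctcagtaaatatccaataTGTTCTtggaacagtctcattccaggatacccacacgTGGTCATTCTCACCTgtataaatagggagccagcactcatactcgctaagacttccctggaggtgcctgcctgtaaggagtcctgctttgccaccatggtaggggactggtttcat
The Pbsn window held 1 match to the androgen element, with 2 mismatches, which overlaps a core match. The Msmb window held a core match and, apart from it, 1 match to the oestrogen element. Among all 33469 rat promoters of this length in the table, 1.873% held the androgen element at this stringency, 20.68% its core and 1.616% the oestrogen element. Of 110 named genes with a promoter in the table, 3, 26 and 4 held these matches. A match describes the letters and is not evidence of binding.

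The log2 level of Pbsn was 6.28, 4.82 and 9.71 on the estradiol arrays and 5.31, 7.45 and 4.88 on the combined arrays. The groups overlapped: estradiol array 3 was highest, combined array 2 next, and the other 4 arrays lay between 4.82 and 6.28. The difference was -1.06 ± 0.94 (limma SE from a spread pooled over the 4 groups, n = 3 and 3), with an adjusted p of 0.49 in limma. On the control arrays the level was 10.50, 11.47 and 11.63, and on the castrated arrays 4.96, 4.37 and 4.54, so Pbsn fell by 6.57 after castration without estradiol (adjusted p = 0.00099, limma).

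Semg1, which encodes a seminal clotting protein, was at 3.40, 2.62 and 9.46 on the estradiol arrays and at 2.87, 2.90 and 2.75 on the combined arrays. Msmb was at 4.18, 3.61 and 8.47 on the estradiol arrays and at 3.61, 3.54 and 3.76 on the combined arrays. Both genes were high on estradiol array 3 and on no other array of the study: the highest other value was 3.43 for Semg1, on control array 3, and 4.18 for Msmb, on estradiol array 1. With all 3 estradiol arrays the differences were -2.32 ± 1.20 and -1.78 ± 0.85, and neither passed (adjusted p = 0.29 and 0.27, limma). Against estradiol array 3 alone they were -6.62 and -4.83, and both passed (adjusted p = 1.5e-08 and 7.1e-08, limma), a test that rests on 1 estradiol array.

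Other male accessory gland markers were examined on this array. Of 17 seminal vesicle and accessory gland genes listed, 10 were measured, and the log2 of their summed level was 8.19, 7.94 and 9.88 on the estradiol arrays, 7.82 to 7.94 on the combined arrays and 7.68 to 8.54 on the control and castrated arrays. Semg1 is a member and carried that sum: without it the value was 8.14, 7.91 and 7.90 on the estradiol arrays, 7.77 to 7.89 on the combined arrays and 7.62 to 8.49 on the control and castrated arrays. The list's median difference against estradiol array 3 was -0.02 (-0.03 after quantile normalization), so the median member was not higher there. The list's mean level was 4.10, a low signal, which limits what this median can show. Svs5, a seminal vesicle secretory protein, was at 3.54 on estradiol array 3 and at 3.38 to 3.65 on the combined arrays, and Svs4, another, was at 5.91 there and at 5.21 to 5.52 on the combined arrays.

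Defb50, a beta-defensin, had the same high array without overlap of the groups. Its level was 4.54, 4.14 and 6.72 on the estradiol arrays and 3.65, 3.73 and 3.44 on the combined arrays, a difference of -1.53 ± 0.56 (unadjusted p = 0.017, adjusted p = 0.24, limma). Wfdc3, a whey acidic protein-type protease inhibitor, was not highest on estradiol array 3. It was at 7.99, 9.42 and 8.77 on the estradiol arrays and at 7.24, 6.96 and 8.002 on the combined arrays, a difference of -1.33 ± 0.37 with an unadjusted p of 0.0030, which did not pass after adjustment (0.24, limma). The groups overlapped at combined array 3 and estradiol array 1 (8.002 and 7.99), and after quantile normalization they did not overlap (difference -1.52). Both groups stayed far under the control arrays, at 11.37 to 11.55.

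Of 21 measured secretory products, 0 were higher and 4 lower in the combined samples at an unadjusted p under 0.05, or 0 and 2 after quantile normalization, and the list's median difference was -0.17 (-0.04 after quantile normalization), beside 0.02 over all genes on both scales. Of all genes, 9.82% were higher and 9.09% lower, or 7.27% and 5.52% after quantile normalization. After castration without estradiol, 3 of the 21 fell and 1 rose, with a list median of -0.22. Most members thus had no change past the threshold there either. The abundant products Scgb2a1 and Andpro did not separate the groups. Scgb2a1, a subunit of the major ventral prostate secretory protein prostatein, was at 12.46, 12.54 and 12.72 on the estradiol arrays and at 12.72, 12.68 and 12.70 on the combined arrays. Andpro, a gene named for its androgen regulation in prostate, was at 9.70, 11.44 and 11.60 against 11.84, 11.03 and 11.56, and the groups overlapped.

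**Figure D2:**
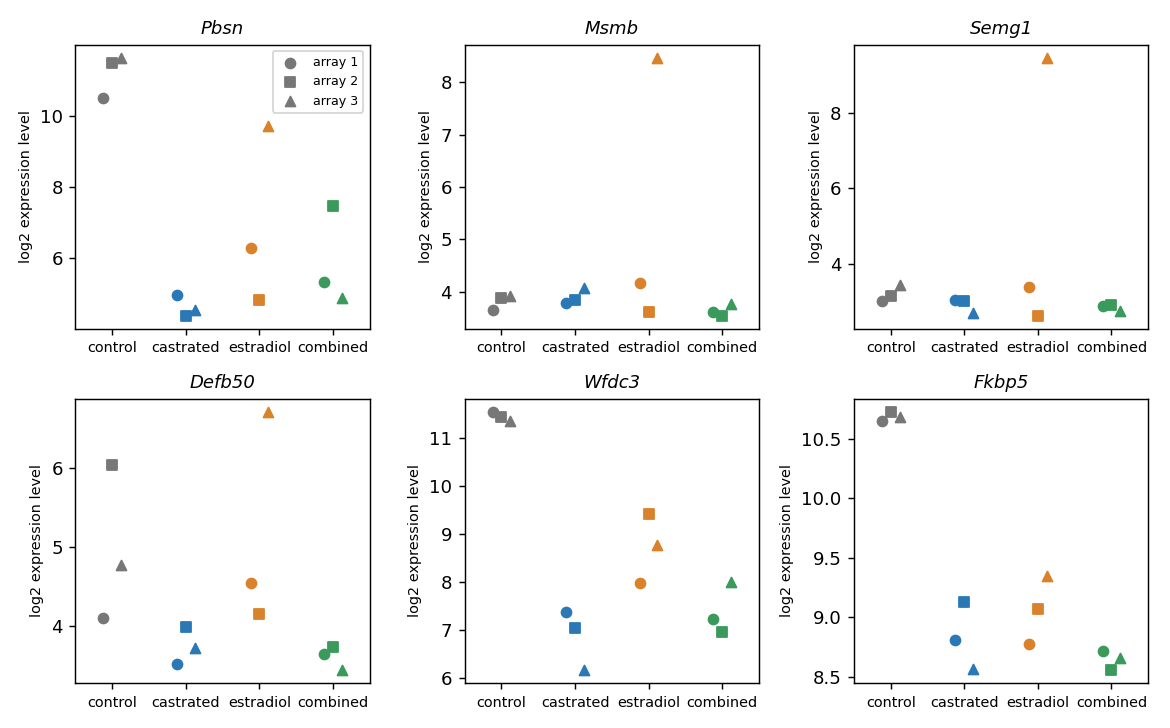
Deposited log2 level (y axis) of 6 secretory or androgen-responsive genes on each of the 12 arrays, by group (x axis), with marker shape giving the array number and no error bars since every array is drawn. Pbsn, Msmb, Semg1 and Defb50 were highest among the estradiol arrays on array 3 (9.71, 8.47, 9.46 and 6.72), whereas Wfdc3 and Fkbp5 were in the upper range of the 6 arrays on estradiol arrays 2 and 3.

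Among 25 measured androgen targets from other tissues and cell lines, members lay on both sides. At an unadjusted p under 0.05, 3 were higher and 4 lower in the combined samples, or 3 and 6 after quantile normalization. Over all genes these shares were 9.82% and 9.09%, or 7.27% and 5.52%. The combined arrays lay below all estradiol arrays on both scales for 4 members and above them for 2, beside 3.55% and 5.78% of all genes. The list's median difference was 0.05 on the deposited values and -0.13 after quantile normalization, so its sign depended on the scaling. Fkbp5, a co-chaperone of steroid receptors induced by androgens and glucocorticoids, was at 8.78, 9.07 and 9.35 on the estradiol arrays and at 8.72, 8.56 and 8.66 on the combined arrays. The combined arrays were lower without overlap, by a small margin on estradiol array 1 (difference -0.42 ± 0.18, unadjusted p = 0.035, adjusted p = 0.25, limma; -0.63 after quantile normalization). Tsc22d3, the glucocorticoid-induced leucine zipper protein, was at 7.51, 7.34 and 7.0 against 6.70, 6.85 and 6.88 and did not overlap (-0.47 ± 0.17). The anion exchanger Slc26a4 was at 6.73, 6.43 and 7.29 against 6.32, 5.92 and 6.21 (-0.66 ± 0.24). Ndrg1, a stress- and androgen-responsive gene, lay the other way, at 7.94, 8.55 and 8.65 on the estradiol arrays and 9.48, 9.0 and 9.68 on the combined arrays (1.01 ± 0.23, adjusted p = 0.24, limma).

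Among genes whose groups did not overlap on either scale, the 12 of smallest p in each direction did not pass the adjusted threshold, so their values describe these arrays. They were selected by p and by lack of overlap, so the 95% intervals given for them are unadjusted and exclude 0 by selection. Rnase4, a secreted ribonuclease, was at 5.56, 6.34 and 6.89 on the estradiol arrays and at 7.65, 7.42 and 7.88 on the combined arrays. The combined level was 2.61-fold that in estradiol samples (log2 difference 1.39 ± 0.26, 95% interval 0.83 to 1.94, adjusted p = 0.24, limma), and 0.76 against estradiol array 3 alone. Its control arrays, at 7.74 to 7.94, and its castrated arrays, at 7.80 to 7.99, were close to the combined arrays, so that the estradiol arrays were the low ones. Cd34, a surface sialomucin of endothelial, progenitor and some stromal cells, had the same order, at 5.63, 6.62 and 6.98 against 7.95, 7.52 and 7.86 (1.37 ± 0.30). Ptpn18, a protein tyrosine phosphatase, was the most even of them, at 6.61, 6.75 and 6.59 on the estradiol arrays and 7.64, 7.51 and 7.68 on the combined arrays (0.96 ± 0.17, or 0.85 after quantile normalization). Here the estradiol arrays lay close together, and the difference against array 3 alone was 1.02. Dpt, which encodes the matrix protein dermatopontin, was at 8.52, 8.35 and 9.03 against 9.81, 9.38 and 10.06 (1.11 ± 0.24).

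The inflammatory caspase Casp4 was at 4.33, 4.40 and 5.29 on the estradiol arrays and at 5.97, 5.70 and 5.97 on the combined arrays (1.21 ± 0.26). The cell adhesion molecule Cadm1 was at 6.47, 6.20 and 6.78 against 7.11, 7.36 and 7.22 (0.75 ± 0.16). For Cadm1 the control arrays were lower still, at 5.76 to 5.96, and the castrated arrays, at 7.29 to 7.43, were near the combined ones. The receptor tyrosine kinase Tyro3 was at 5.84, 5.63 and 6.08 against 6.58, 6.57 and 6.48 (0.70 ± 0.15). The other 5 genes higher in the combined samples were Lmo7, a junction-associated LIM domain protein, Ehd4, a regulator of endocytic recycling, Lix1l, Osgepl1 and Sytl2, a Rab effector in vesicle docking, with differences from 0.78 to 1.01.

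On the lower side, most genes had low signal in all groups. Pdia5, a protein disulfide isomerase of the endoplasmic reticulum, was the exception: it was at 9.22, 9.44 and 9.64 on the estradiol arrays and at 8.80, 8.87 and 8.27 on the combined arrays. The combined arrays were lower without overlap, and the level in estradiol samples was 1.73-fold that in combined samples (-0.79 ± 0.19, 95% interval -1.19 to -0.39, adjusted p = 0.24, limma). The difference was -0.99 after quantile normalization and -0.99 against estradiol array 3 alone. After castration without estradiol Pdia5 fell by 0.79 (adjusted p = 0.024, limma), from 9.59 to 9.76 on the control arrays to 8.75 to 9.12. Hamp, which encodes the iron-regulating peptide hepcidin, was at 6.52, 6.92 and 6.74 against 6.04, 5.89 and 6.12 (-0.71 ± 0.17, or -0.80 after quantile normalization). The other 10 had mean levels under 5 in both groups, the range in which estradiol arrays 1 and 2 ran high in general. They were Cnga2 and Gabra6, which encode neuronal channel subunits, Cyp11b2, the aldosterone synthase of the adrenal, Plcz1, a sperm phospholipase, Tdrd5, a germ cell protein, and Tuba3b, Slc7a12, Sult2a2, Bpifa2f and Sslp1l1. In all of them but Cnga2 the lowest estradiol array was array 3, and every difference was smaller after quantile normalization, running from -0.60 to -0.38.

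**Figure D3:**
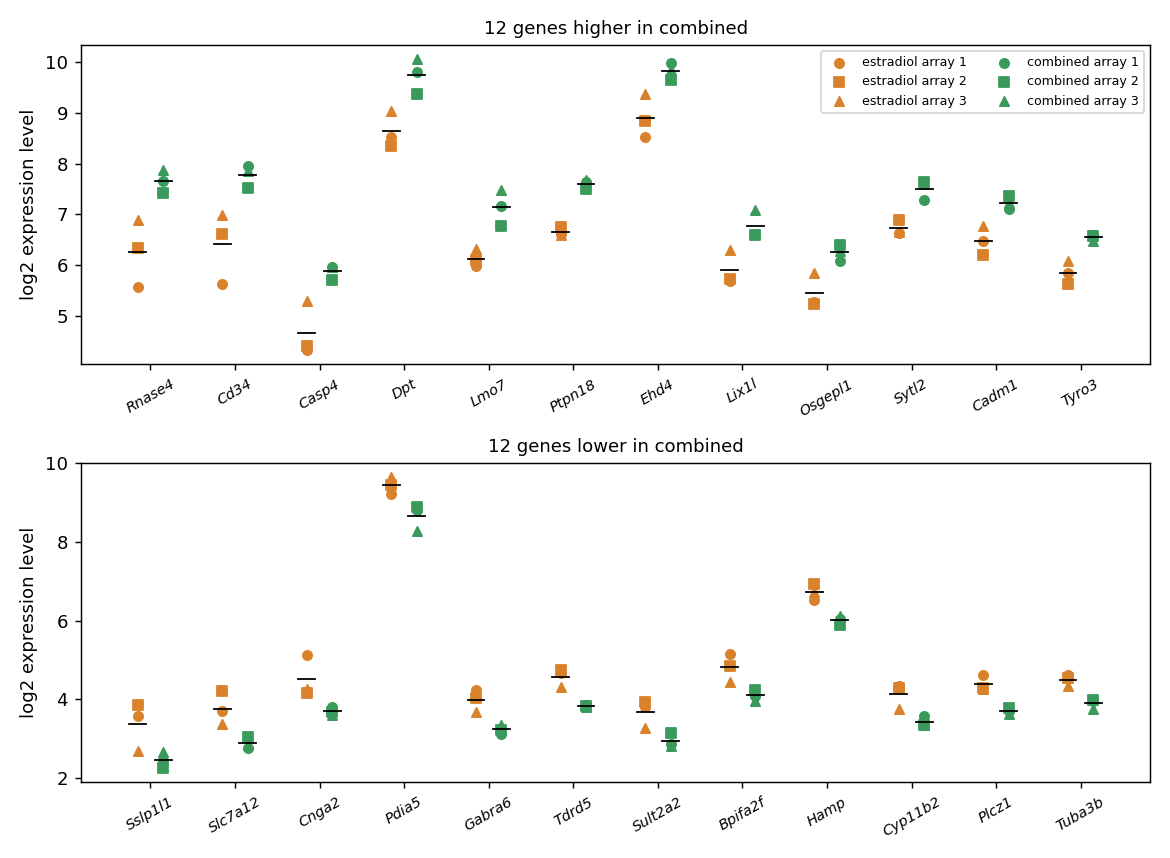
Deposited log2 level (y axis) on the 3 estradiol (orange) and 3 combined (green) arrays for the 12 genes of smallest p in each direction without overlap (x axis), with the group mean as a bar and marker shape giving the array number. Rnase4 ran from 5.56 to 6.89 in estradiol and from 7.42 to 7.88 in combined samples, and Pdia5 from 9.22 to 9.64 and from 8.27 to 8.87. Levels of different genes come from different probe sets and are not comparable.

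Many stromal and vascular markers lay higher in the combined samples, also against estradiol array 3 alone. In whole tissue, fewer cells of a type and less RNA per cell cannot be told apart. Of 24 measured fibroblast and matrix markers, 10 were higher and 0 lower at an unadjusted p under 0.05, or 7 and 0 after quantile normalization, and 8 were higher without overlap on both scales. Their median difference was 0.49, 0.33 after quantile normalization and 0.41 against estradiol array 3 alone. Over all genes the median against estradiol array 3 was 0.01. Of all genes, 9.82% were higher and 9.09% lower, or 7.27% and 5.52% after quantile normalization, and 5.78% were higher without overlap. In the bin of mean level 7.81, near the list's mean of 7.68, 268 of 1450 genes were higher and 13 lower on the deposited values. Lum, the matrix proteoglycan lumican, was at 6.06, 5.84 and 6.55 on the estradiol arrays and at 7.23, 6.88 and 7.46 on the combined arrays (1.04 ± 0.26). The combined arrays were above all estradiol arrays, and the control arrays, at 6.69 to 7.38, were also higher than the estradiol ones. Mfap4, a microfibril-associated protein, was at 8.22, 8.05 and 8.40 against 9.48, 8.88 and 9.69 (1.13 ± 0.28).

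Postn, the matricellular protein periostin, was at 5.73, 5.84 and 5.88 against 6.62, 6.47 and 6.85 (0.83 ± 0.22). Pdgfrb, the platelet-derived growth factor receptor of mesenchymal cells, was at 6.41, 6.20 and 6.70 against 7.33, 7.01 and 7.56 (0.86 ± 0.25). Fbln1 and Dcn, which encode the matrix proteins fibulin 1 and decorin, had differences of 1.03 ± 0.30 and 0.78 ± 0.25. None of these genes passed after adjustment. The mean log2 level of the whole fibroblast list was 7.55, 7.10 and 7.37 on the estradiol arrays and 7.94, 7.54 and 7.96 on the combined arrays, with a narrow overlap, and it was 7.59 to 8.01 on the control arrays and 7.43 to 8.12 on the castrated arrays. After quantile normalization the groups overlapped, since estradiol array 1 stood at 7.72 and combined array 2 at 7.51.

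Of 22 endothelial markers, 8 were higher and 1 lower at an unadjusted p under 0.05, or 9 and 0 after quantile normalization, with a median difference of 0.33 (0.34 after quantile normalization, 0.30 against estradiol array 3). Over all genes these shares were 9.82% and 9.09%, or 7.27% and 5.52%. Without overlap on both scales, 6 members were higher and 2 lower, beside 5.78% and 3.55% of all genes. The list's mean level was 5.89, and in the bin of 5.88 the median difference was 0.01 on the deposited values. The members described next are all on the higher side. Pecam1, the endothelial adhesion molecule CD31, was at 6.37, 6.16 and 6.30 on the estradiol arrays and 6.79, 6.84 and 7.11 on the combined arrays. The combined arrays were higher without overlap (0.64 ± 0.16, adjusted p = 0.24, limma) and lay in the range of the control arrays, at 6.72 to 7.03. Flt1, a receptor for vascular endothelial growth factor, was at 5.05, 5.65 and 6.14 against 6.18, 6.36 and 6.62 (0.77 ± 0.23). Tek, the angiopoietin receptor, was at 5.23, 4.48 and 5.37 against 5.75, 5.64 and 6.07 (0.79 ± 0.25), and Egfl7, a protein secreted by endothelium, had a difference of 0.49 ± 0.15. The mean log2 level of the endothelial list was 5.70, 5.62 and 5.70 on the estradiol arrays and 5.90, 5.89 and 6.09 on the combined arrays, without overlap, and 5.84 to 6.07 on the control and castrated arrays.

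Of 18 smooth muscle markers, 6 were higher and 0 lower at an unadjusted p under 0.05, or 4 and 2 after quantile normalization, with medians of 0.46 and 0.27. Their mean level was 8.23. On the deposited values 268 of 1450 and 273 of 1451 genes were higher in the bins of mean level 7.81 and 8.58, and 13 and 12 lower. Cnn1, the contractile protein calponin, was at 7.46, 7.78 and 8.29 against 8.70, 8.84 and 9.39 (1.13 ± 0.32). Tagln (transgelin) and Acta2 (smooth muscle actin) had differences of 0.88 ± 0.29 and 0.57 ± 0.20. After quantile normalization the median against estradiol array 1 alone was -0.26, against 0.41 and 0.32 for arrays 2 and 3, so the direction was not shared by all 3 arrays. Luminal epithelial markers, measured for 21 genes, had 4 higher and 0 lower members (3 and 0 after quantile normalization) and medians of 0.27 and 0.08. Their mean level was 9.52. In the bins of 8.58 and 9.98, 273 and 267 of 1451 genes were higher on the deposited values and 12 and 11 lower. The luminal counts on these values were thus near the share at that level. Cldn4, a tight junction claudin, was at 11.39, 11.70 and 12.07 against 12.62, 12.21 and 12.48 (0.72 ± 0.20), and Krt19, a simple epithelial keratin, at 10.86, 10.82 and 10.76 against 11.37, 11.19 and 11.29 (0.47 ± 0.21). Of 11 basal epithelial markers, 0 were higher and 0 lower on both scales.

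Macrophage and dendritic cell markers depended on the array. Of 28 measured, 5 were higher and 0 lower (2 and 0 after quantile normalization). Their median was 0.48, or 0.39 after quantile normalization, but -0.10 against estradiol array 3 alone. The list's mean level was 7.01, and in the bin of 7.16, 240 of 1451 genes were higher and 16 lower on the deposited values. The mean log2 level of the list was 6.62, 6.65 and 7.47 on the estradiol arrays and 7.43, 7.04 and 7.49 on the combined arrays, beside 6.09 to 6.52 on the control arrays and 7.21 to 7.84 on the castrated arrays. Estradiol array 3 thus lay with the castrated and combined arrays, and estradiol arrays 1 and 2 near the controls. Tyrobp, a signalling adaptor of myeloid cells, was at 7.90, 7.59 and 8.71 against 8.79, 8.59 and 8.98, and the complement gene C1qb at 6.66, 7.69 and 8.53 against 8.90, 8.21 and 8.63. Interferon response and antigen presentation genes had a median of 0.23 (0.29 after quantile normalization) and of 0.03 against estradiol array 3. Lymphocyte markers had 1 higher and 3 lower of 26, with medians of -0.14 and 0.03. Their mean level was 4.82, and in the bin of 4.78, 5 of 1450 genes were higher and 191 lower on the deposited values.

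**Figure D4:**
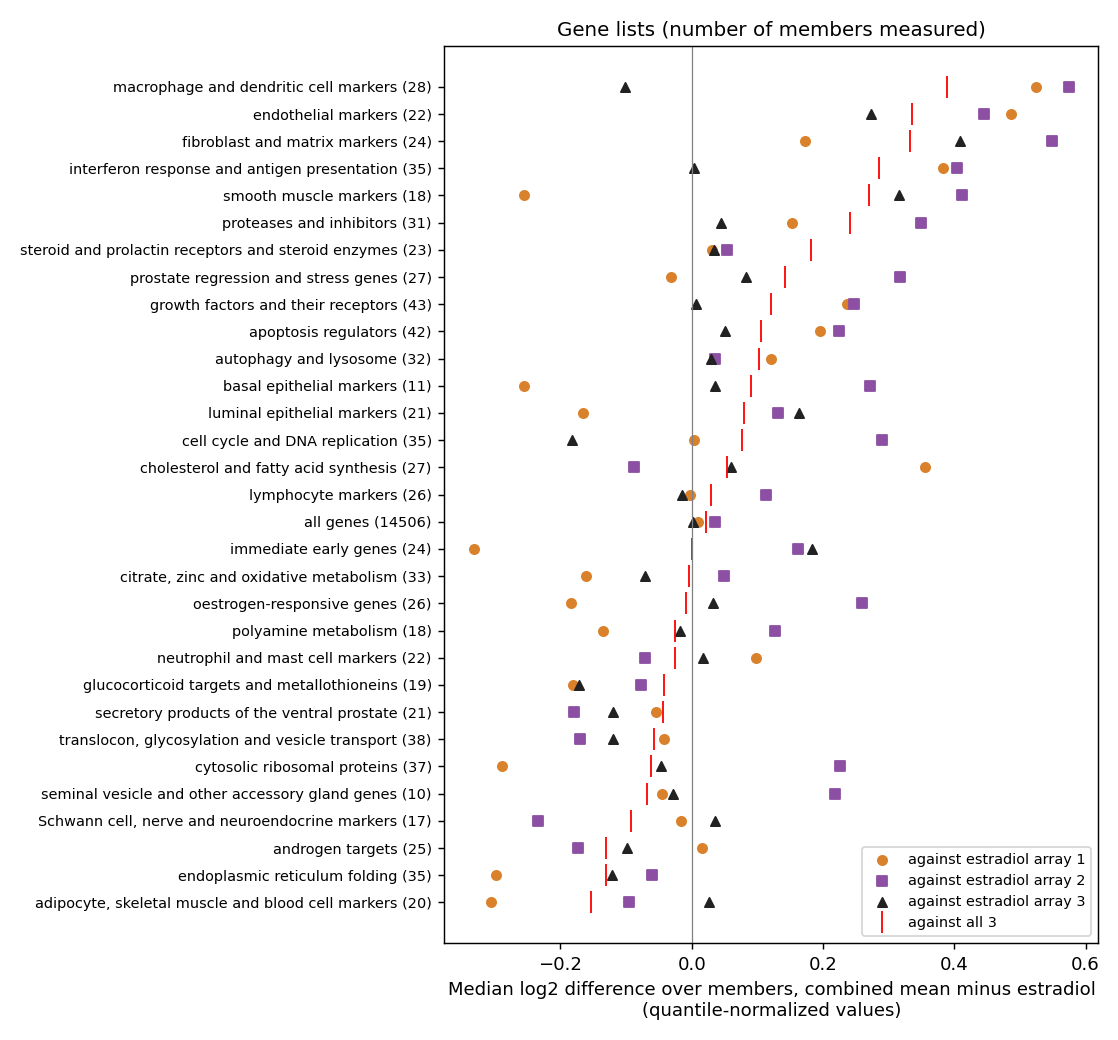
Median log2 difference over the measured members of each gene list after quantile normalization (x axis), as the combined mean minus estradiol array 1, 2 or 3 alone (points) or minus all 3 (red bar), with lists on the y axis and the number of members in parentheses. Fibroblast (0.17, 0.55 and 0.41) and endothelial markers (0.49, 0.44 and 0.27) lay above 0 against each array, while macrophage markers lay at -0.10 against array 3.

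Of 42 apoptosis regulators, 12 were higher and 0 lower in the combined samples at an unadjusted p under 0.05, or 10 and 5 after quantile normalization, beside 9.82% higher and 9.09% lower of all genes, or 7.27% and 5.52%. On the deposited values these shares depend on level: in the bins of mean level 6.52 and 7.16, on either side of the list's mean of 6.91, 202 of 1450 and 240 of 1451 genes were higher and 24 and 16 lower. The list's median difference was 0.14 (0.11 after quantile normalization), and 0.07 against estradiol array 3 alone. Bcl2, which inhibits apoptosis, was at 5.95, 7.77 and 7.92 on the estradiol arrays and at 8.81, 8.78 and 9.40 on the combined arrays, without overlap. The combined level was 3.45-fold that in estradiol samples (1.78 ± 0.41, 95% interval 0.90 to 2.67, adjusted p = 0.24, limma), and the difference against estradiol array 3 alone was 1.08. Control arrays of Bcl2 were at 7.62 to 8.12 and castrated arrays at 8.30 to 8.95. Tnfrsf1a, the main receptor for tumour necrosis factor, was at 7.42, 7.35 and 7.80 against 8.37, 8.07 and 8.25 (0.71 ± 0.18), and its adaptor Tradd was at 6.72, 7.07 and 7.68 against 8.08, 7.99 and 7.69 (0.77 ± 0.22), with combined array 3 and estradiol array 3 almost equal.

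Of 31 proteases and inhibitors, 9 were higher and 1 lower, or 8 and 1 after quantile normalization, with medians of 0.30 and 0.24, but 0.05 against estradiol array 3. Of all genes, 9.82% were higher and 9.09% lower, or 7.27% and 5.52%. The list's mean level was 6.99, and the bins of 6.52 and 7.16 had 202 of 1450 and 240 of 1451 genes higher on the deposited values. In these bins 24 and 16 genes were lower. Timp3, an inhibitor of matrix metalloproteinases, was at 7.62, 8.29 and 8.49 against 9.08, 8.75 and 9.50 (0.98 ± 0.27). The matrix metalloproteinase Mmp2 was at 7.48, 7.55 and 7.75 against 8.39, 7.85 and 8.22 (0.56 ± 0.17). Serping1, an inhibitor of complement C1, was at 7.46, 7.61 and 8.57 against 9.23, 8.62 and 9.48 (1.23 ± 0.38), and Adamts1, a secreted metalloproteinase, at 6.93, 6.65 and 7.06 against 7.52, 7.15 and 7.98 (0.67 ± 0.22). Among 24 immediate early genes 4 were higher and 0 lower (3 and 0 after quantile normalization), including the transcription factor Egr1, at 7.71, 7.77 and 7.95 against 8.85, 8.75 and 8.77 (0.98 ± 0.23), without overlap. The castrated arrays of Egr1, at 7.95 to 9.10, were likewise above its controls, at 7.41 to 7.49. Around the immediate early list's mean level of 7.53, the bins of 7.16 and 7.81 had 240 of 1451 and 268 of 1450 genes higher. In them 16 and 13 genes were lower on the deposited values.

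Biosynthetic and proliferation lists are given beside all genes, of which 9.82% were higher and 9.09% lower, or 7.27% and 5.52% after quantile normalization. Of 35 endoplasmic reticulum folding genes, 2 were higher and 0 lower, or 0 and 1 after quantile normalization (medians 0.06 and -0.13). Of 38 translocon, glycosylation and vesicle transport genes, 1 was higher and 0 lower, or 0 and 4 (medians 0.14 and -0.06). Of 35 cell cycle and replication genes, 0 were higher and 0 lower, or 0 and 1, and of 37 cytosolic ribosomal protein genes 2 and 0, or 0 and 0. For each of these 4 lists the sign of the median changed with the scaling. Of 27 cholesterol and fatty acid synthesis genes, 6 were higher and 0 lower, or 3 and 0, with medians of 0.26 and 0.05. Their mean level was 8.65, and in the bin of 8.58, 273 of 1451 genes were higher and 12 lower on the deposited values.

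Receptors and oestrogen-responsive genes are given beside all genes, of which 9.82% were higher and 9.09% lower, or 7.27% and 5.52% after quantile normalization. Of 23 steroid and prolactin receptors and steroid enzymes, 2 were higher and 1 lower (1 and 0 after quantile normalization), and of 26 oestrogen-responsive genes 2 and 1 (1 and 2). Esr1, oestrogen receptor alpha, was at 5.39, 5.04 and 4.75 on the estradiol arrays and at 4.78, 4.75 and 4.63 on the combined arrays. Esr2, oestrogen receptor beta, which is the form of prostate epithelium, was at 6.64, 6.32 and 7.33 against 6.30, 6.61 and 6.14, beside 7.64 to 8.93 on the control arrays. The prolactin receptor Prlr was at 7.74, 8.84 and 9.30 against 8.95, 9.29 and 9.24. These 3 receptors overlapped between the groups, and none had an unadjusted p under 0.05. The carbonic anhydrase Car12, an oestrogen-responsive gene in breast, was at 6.96, 8.14 and 8.16 against 7.21, 6.86 and 7.01 (-0.73 ± 0.33, unadjusted p = 0.048). Gpx3, an extracellular glutathione peroxidase, was at 10.40, 11.09 and 11.98 against 11.87, 11.60 and 11.19, and both groups were above the control arrays, at 8.73 to 9.64, and the castrated arrays, at 9.26 to 9.63.

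Whether castration acted differently under estradiol was tested with the interaction, which is combined minus estradiol minus the difference of castrated minus control. In animals without estradiol castration changed 803 genes (5.54%; 460 rose and 343 fell), a count that was 361 to 470 without control array 1, 2 or 3, castrated array 1 or castrated array 3, and 1783 without estradiol array 1. The 460 genes that rose had a median difference of 0.97 there and of 0.25 under estradiol (0.14 after quantile normalization, 0.01 against estradiol array 3), and 387 of them had a positive difference under estradiol, beside 7479 of all 14506 genes. Their mean level was 7.45, against 6.30 over all genes. In the bins of mean level 7.16 and 7.81 the median difference was 0.21 and 0.24 on the deposited values. The 2 counts thus compare genes of unlike level. The 343 genes that fell had medians of -1.02 and 0.03 (-0.08 after quantile normalization, -0.12 against estradiol array 3), and 161 of them had a negative difference under estradiol. Pearson's r between these differences, which share no array, was 0.46 across the 803 genes and 0.18 across all genes, as a description. Against estradiol array 3 alone it was 0.32 across the 803 genes. Genes are not independent replicates.

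The interaction passed for 159 genes, positive for 113 (0.779%) and negative for 46 (0.317%). The 113 genes had a median difference of -1.35 after castration without estradiol and of 0.20 under estradiol (0.09 after quantile normalization, -0.06 against estradiol array 3). The 46 genes had medians of 1.80 and 0.18 (0.04 and 0.01). The castration difference enters the interaction and shares its arrays, so these medians are a description of the selected genes. After quantile normalization 168 genes passed (97 positive and 71 negative), 132 of which were among the 159. Without estradiol arrays 1 and 2 on quantile-normalized values 385 passed, of which 138 were shared, and all 159 kept their sign. The count was 389 without estradiol array 1 and 1684 without estradiol array 3. It was 63 to 99 without any 1 of the control, castrated or combined arrays.

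The largest of the named negative interactions was Mep1b, the beta subunit of the metalloprotease meprin. It was at 5.46 to 5.75 on the control arrays and 9.76 to 10.51 on the castrated arrays. The estradiol arrays were at 8.59, 9.51 and 9.41 and the combined arrays at 9.42, 9.71 and 9.27. Castration thus raised it by 4.53 without estradiol, while the difference under estradiol was 0.30 ± 0.25, and the interaction was -4.23 ± 0.35 (adjusted p = 0.00023, limma). The membrane metalloproteinase Mmp15 had the same pattern, at 7.98 to 8.45 in control, 10.46 to 11.06 in castrated, 10.44 to 10.72 in estradiol and 10.54 to 10.83 in combined samples (interaction -2.51 ± 0.26). Clu, the chaperone clusterin and a classical marker of the regressing prostate, was at 10.58 to 11.03 in control and 12.62 to 12.92 in castrated samples. Its estradiol arrays were at 12.24, 12.25 and 12.73 and its combined arrays at 12.89, 12.70 and 12.78 (interaction -1.66 ± 0.25, adjusted p = 0.0062, limma).

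Gadd45b, a stress-induced growth arrest gene, Erbb3, a receptor tyrosine kinase of the epidermal growth factor receptor family, and Ocln, the tight junction protein occludin, also had negative interactions, of -1.73, -1.75 and -1.73. Gadd45b was at 9.50, 9.08 and 9.35 on the estradiol arrays and at 9.49, 9.18 and 9.42 on the combined arrays, against 7.30 to 7.64 on the control arrays. In each of these 6 genes the means of the estradiol and combined arrays lay nearer to the castrated than to the control mean.

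The interaction was positive for 7 of 27 measured cholesterol and fatty acid synthesis genes and negative for 0 (6 and 0 after quantile normalization). Over all genes it was positive for 0.779% and negative for 0.317%. Without estradiol, 11 of the 27 fell after castration and 0 rose. The castration difference enters the interaction, and 108 of all 343 genes that fell had a positive one. Scd, the stearoyl-CoA desaturase, was at 8.47 on each control array and at 6.20 to 6.62 on the castrated arrays. The estradiol arrays were at 5.90, 5.91 and 6.19 and the combined arrays at 6.09, 6.22 and 5.75, a difference under estradiol of 0.02 ± 0.17 and an interaction of 2.13 ± 0.24 (adjusted p = 0.00072, limma). The fatty acid elongase Elovl6 was at 9.07 to 10.13 in control and 6.78 to 7.62 in castrated samples, with estradiol arrays at 5.82, 7.08 and 7.28 and combined arrays at 7.24, 7.54 and 7.57 (interaction 3.27 ± 0.51).

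Endoplasmic reticulum folding genes had 9 of 35 members with a positive interaction and 0 with a negative one (8 and 0 after quantile normalization). Of all genes, 0.779% and 0.317% passed in these directions, and 23 of the 35 members fell after castration without estradiol. Derl3, a component of the degradation of misfolded proteins, had a castrated range of 6.01 to 6.94 and a control range of 8.95 to 9.54. It was at 7.08, 7.06 and 6.90 on the estradiol arrays and at 7.47, 8.28 and 6.52 on the combined arrays (interaction 3.08 ± 0.51). Sdf2l1, a stress-induced luminal protein, had an interaction of 2.17 ± 0.40. Polyamine metabolism had 3 of 18 members, among them Srm, spermidine synthase, and Amd1, adenosylmethionine decarboxylase, with interactions of 1.93 ± 0.36 and 1.15 ± 0.19. After castration without estradiol, 6 of these 18 fell. The second probe set of Srm had an interaction of 1.58 in the same direction. Srm without estradiol arrays 1 and 2 after quantile normalization had an adjusted p of 0.076 (limma) and did not pass.

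Cpa6, a carboxypeptidase, was at 8.76 to 9.98 in control samples and at 5.53 to 5.83 in castrated samples. It was at 5.73, 5.42 and 5.96 on the estradiol arrays and 5.26, 5.53 and 5.77 on the combined arrays, which overlapped (interaction 3.64 ± 0.38). The other genes named by the smallest interaction p were Cntn6, a neural adhesion molecule (2.80 ± 0.28), Ptpn9, a tyrosine phosphatase (2.72 ± 0.27), Pfkfb4, a regulator of glycolysis (2.50 ± 0.22), and Lyzl6, a lysozyme-like protein (2.33 ± 0.24). Wfdc3 and Fkbp5, which were lower in the combined samples, had positive interactions of 3.26 ± 0.52 and 1.43 ± 0.25: they fell by 4.59 and 1.85 after castration without estradiol and had differences of -1.33 and -0.42 under it. The interaction of Pbsn was 5.51 ± 1.33 and did not pass (adjusted p = 0.074, limma).

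**Figure D5:**
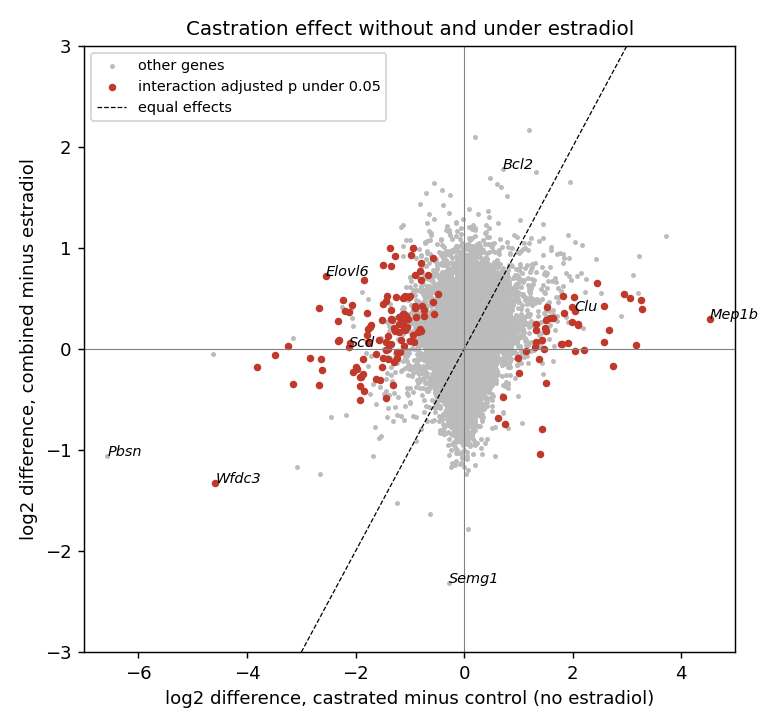
Log2 difference of castrated minus control (x axis) against combined minus estradiol (y axis) for the 14506 genes, with the 159 genes that passed the interaction in red and the line of equal effects dashed. Genes with large castration differences without estradiol, such as Mep1b (4.53) and Wfdc3 (-4.59), lay at 0.30 and -1.33 under estradiol.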

How the data were processed

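RNA of rat ventral prostate was hybridized to Affymetrix arrays, 12 in all. The authors deposited 1 value per probe set and array; these values were made with Affymetrix Expression Console, per the submitters' processing notes. The deposited values were read as log2 levels from their range; their normalization and log base, and any genome build, are not stated in the sources used here. Of 29214 probe sets, 15310 had 1 gene symbol in the platform annotation, 323 several and 13581 none; only those with 1 were used. For 527 genes with several probe sets the one of highest mean was kept.

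Differences were fitted by lmFit and eBayes of limma 3.58.1 (R 4.3.3; 8 residual and 5.29 prior degrees of freedom) over all 12 arrays with 1 mean per group, 2-sided, with Benjamini-Hochberg adjustment over 14506 genes and a threshold of 0.05. The fit was tested on simulated data in which a gene had the same spread in all groups. The simulation therefore does not cover the wider spread of the estradiol arrays. Every adjusted p comes from limma, and ± after a difference is its standard error there, from a spread pooled over the 4 groups. The estradiol group varied more than the others (median standard deviation 0.36, against 0.12 in combined samples). The pooled error can therefore be too small for combined minus estradiol. With only the 6 compared arrays, 1146 genes had an unadjusted p under 0.05 in limma, against 2742 in the main fit. Only genes that passed are said to have risen or fallen. Alternatives were quantile normalization, array weights, a replicate block, other filters and leaving arrays out. Depth does not apply to arrays; their number limits the precision. Replicate numbers were not treated as pairs in the main fit. Residuals of same-numbered estradiol and combined arrays correlated at -0.01, 0.13 and 0.15, and those of differently numbered arrays at -0.22 to 0.11. The replicate block among the alternatives allows for shared numbers.

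Genes were named by a rule: the 12 of smallest p in each direction without overlap on both scales, since none passed; the 3 members of smallest p of each of 30 lists, of which some are described; a panel; and the 6 smallest interaction p, placeholder, predicted and receptor-cluster genes aside. Panel genes not shown are not analysed here. Defb50, Slc26a4, Pdgfrb, Fbln1, Dcn, Tek, Tradd, Elovl6, Derl3, Sdf2l1, Srm, Amd1, Gadd45b, Erbb3, Ocln and Cpa6 were named after their values were seen. Genes and lists were chosen with earlier results of these data known. Promoters come from RefSeq (GRCr8). Plots used matplotlib 3.10.9 (Python 3.11.15).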

Additional observations from a re-analysis of the deposited data

Results flagged for a closer look

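The castration effect differed with estradiol, by the interaction test, for 159 genes. Of the genes named here the interaction was negative for Mep1b (-4.23), Mmp15 (-2.51), Erbb3 (-1.75), Gadd45b (-1.73), Ocln (-1.73) and Clu (-1.66). It was positive for Cpa6 (3.64), Elovl6 (3.27), Wfdc3 (3.26), Derl3 (3.08), Cntn6 (2.80), Ptpn9 (2.72), Pfkfb4 (2.50), Lyzl6 (2.33), Sdf2l1 (2.17), Scd (2.13), Srm (1.93), Fkbp5 (1.43) and Amd1 (1.15). All values are log2 differences between the effect of castration with and without estradiol, from limma. Their causes were not tested.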

How the results depend on the processing

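For combined minus estradiol, leaving out 1 array gave 0 to 4153 genes past the threshold in limma. The 4153 came without estradiol array 3; without any 1 of the other arrays the count was 0. It was 2 without estradiol arrays 1 and 2 together, with or without quantile normalization, 489 with array weights, and 0 under the other alternatives, among them quantile normalization, array weights with quantile normalization and the replicate block. For the interaction, leaving out 1 array gave 63 to 1684 genes (43 to 871 positive, 17 to 813 negative). Without estradiol arrays 1 and 2 it gave 393 genes (238 negative), the same with quantile normalization 385 (228 negative), array weights 1051 (642 positive, 409 negative), array weights with quantile normalization 568 (281 and 287), and quantile normalization alone 71 negative genes. For castrated minus control, leaving out 1 array gave 361 to 1783 genes, only the 6 arrays of that comparison 1872, omission of estradiol arrays 1 and 2 2408 (2322 with quantile normalization), and array weights 3788 (3580 with quantile normalization). With the replicate block the interaction gave 150 genes and castrated minus control 825, and no direction of these counts changed. The causes were not tested, except that a fit without the more variable estradiol arrays has a smaller pooled spread by construction.

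Among 67 genes put through every alternative for combined minus estradiol, the difference changed sign for 6. Pbsn was 0.33 without estradiol array 3, and -2.12 to 0.33 over all such omissions of 1 array. Prlr was -0.14 without estradiol arrays 1 and 2, -0.10 with quantile normalization added and -0.074 with array weights on quantile-normalized values. Scgb2a1 was -0.044 after quantile normalization, -0.022 without estradiol arrays 1 and 2 and -0.0069 with array weights on quantile-normalized values. Andpro was -0.12 without estradiol arrays 1 and 2, -0.14 with quantile normalization added and -0.044 without estradiol array 1, within -0.044 to 0.91 over such omissions. Gpx3 was -0.43, -0.37 and -0.062 and Scd -0.17, -0.19 and -0.064 under the same 3 alternatives as Prlr. Scd, which lay near 0, was -0.083 to 0.15 over omissions of 1 array. Of 15 further genes named for the interaction alone, 5 had a difference under estradiol that changed sign after quantile normalization, among them Erbb3 (0.05 to -0.11) and Gadd45b (0.05 to -0.13), and 3 without estradiol arrays 1 and 2. Single probe set signals on 3 arrays a group limit what could be detected.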
